A study of Mus musculus with 6 samples.

Results

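Integrins and laminins are the receptors and ligands through which cells hold on to the basement membrane, and 35 of their genes were followed here in the tibialis anterior, the fast-twitch shin muscle that lifts the foot. Genes were chosen by name: the platform gene symbols of an integrin alpha or beta subunit (25 genes) or of a laminin alpha, beta or gamma chain (10 genes), among 22180 genes measured. Itga10 was not analysed here. Itgb2l, Itgbl1, Itgb1bp1, Itgb1bp2 and Itgb3bp begin with the same letters but were not counted as subunits that pair.

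The castrated group held 3 samples of male C57Bl/6 mice whose testes had been removed at 11 weeks of age, and the sham group held 3 samples of males of that strain that had a sham operation at that age. All were sampled at 18 weeks, 7 weeks after surgery. The feeding label reads refed for every castrated sample and fasted for every sham sample, so the effects of surgery and of feeding cannot be told apart in any difference below. The protocol attached to the samples describes a 30 min meal and a further 4 h without food for all mice, which conflicts with those labels. Castration takes away most circulating androgen, and the question was how muscle gene expression changes after it.

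As background, an integrin is a pair of 1 alpha and 1 beta subunit that spans the cell membrane. Outside the cell it binds matrix proteins, and inside it is linked to actin through adaptors such as talin. A laminin is a cross-shaped trimer of 1 alpha, 1 beta and 1 gamma chain. In adult skeletal muscle the fibre is wrapped in laminin-211 (Lama2, Lamb2 and Lamc1), which is bound by the alpha 7 beta 1 integrin (Itga7 with Itgb1) and by dystroglycan. Loss of LAMA2 in humans causes a congenital muscular dystrophy, and mutations of ITGA7 cause a myopathy. The laminin alpha chains Lama4 and Lama5 are typical of vessel walls.

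Values are log2 expression per gene on an array, so a difference of 1 is a 2-fold change, and a difference is castrated minus sham throughout. The 6 arrays had medians of 5.04 to 5.10, and across the 22180 genes samples of the same group correlated at 0.990 to 0.992 and samples of different groups at 0.989 to 0.992. Markers of fast muscle fibres such as Ckm and Acta1 were bright on all arrays, with a mean log2 level over 8 genes of 12.88 to 12.95 in castrated and 12.87 to 13.04 in sham samples. An array has no true zero, so the 95th percentile of 1105 olfactory receptor genes, most of them silent in muscle, served as a rough background level and stood at 4.97. Of the 35 genes 30 had a mean above it, or 85.7%, against 60.1% of all genes. The 5 at or below it were Lama1, a laminin chain of early embryonic basement membranes, and the leukocyte integrins Itgad, Itgae, Itgal and Itgax.

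No integrin or laminin gene differed past the threshold between castrated and sham muscle. With limma over all genes, 0 of the 35 had an adjusted p under 0.05, against 0.0135% of all genes (3 of 22180). At an unadjusted p under 0.05 there were 2, Itga7 with lower and Lama4 with higher values in castrated samples. They make up 5.71% of the 35, against 7.13% of all genes, so the share is near the background. The groups did not overlap for 5 genes, Itga7, Itga5, Lama4, Itgae and Itgb8, or 14.3%, against 12.8% of all genes. Differences lay between −0.31 for Itga7 and 0.32 for Lama4. The integrin median was 0.035 and the laminin median −0.021, beside −0.0056 for all genes. After quantile normalization the integrin median was −9.0e-05, and after centring each array on its median −0.0029. Centring moves the difference of every gene by the same amount, so the distance between the integrin and all-gene medians stays the same. The all-gene median after quantile normalization is not given here. Of the integrins 15 had a higher and 10 a lower mean in castrated samples, and of the laminins 5 and 5.

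The precision of 3 samples against 3 sets what could be seen. For all 35 genes the 95% interval of the difference lay within a 2-fold change in either direction, as it did for 99% of all genes. For 28 of the 35 it also lay within 0.5 on the log2 scale, a 1.41-fold change, against 77.3% of all genes. Each interval is the gene's own and is not adjusted for the number of genes. The 7 genes whose intervals reached further were Itga7, Itga1, Itga3, Itga4, Itgb5, Itgb6 and Lama4.

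**Figure D1:**
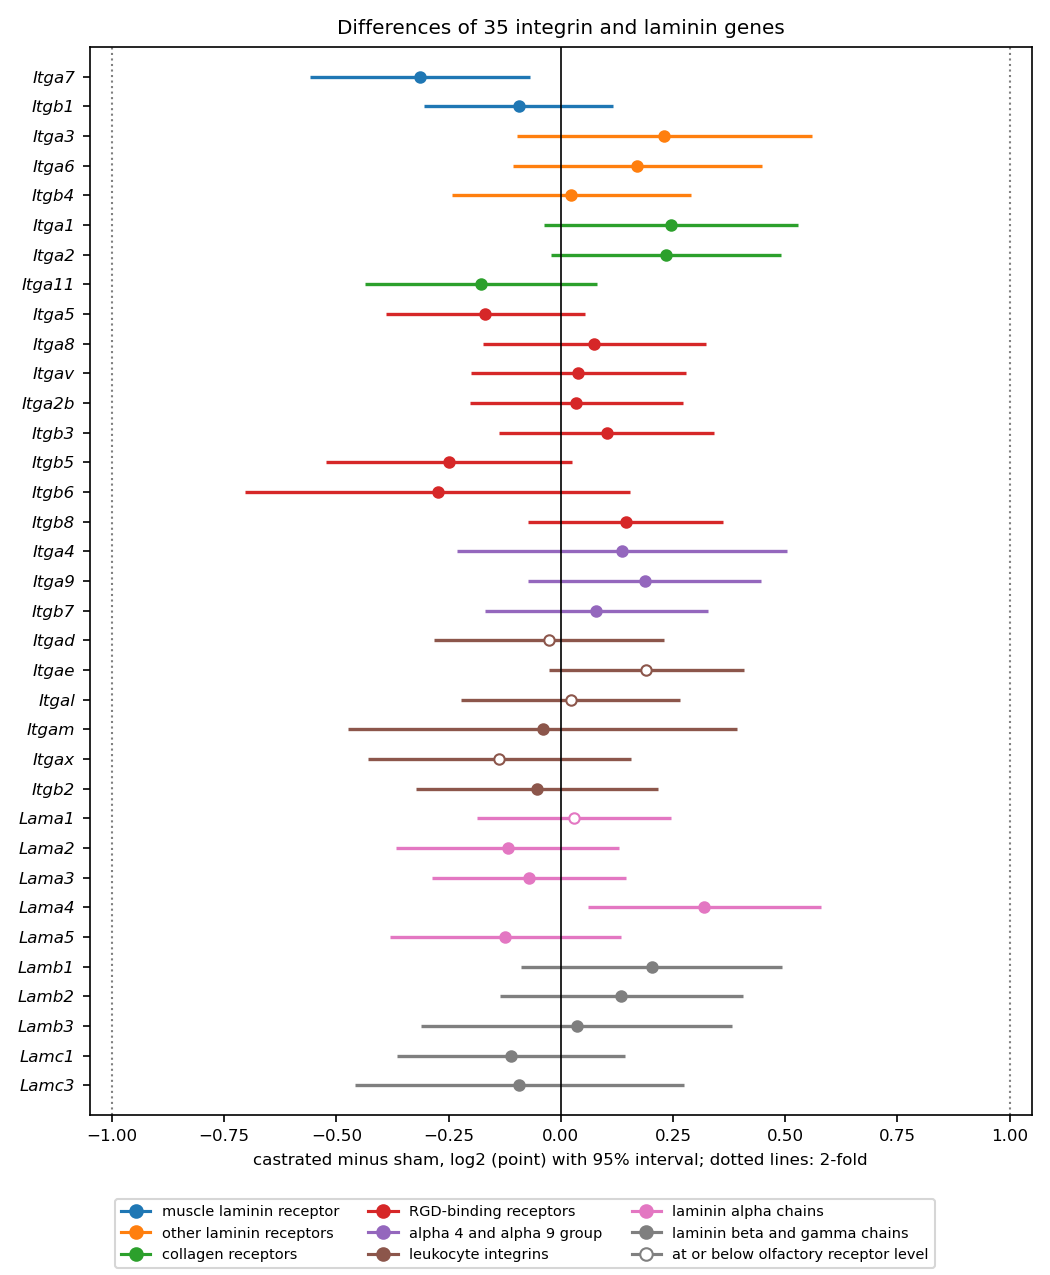
Castrated minus sham difference on the log2 scale (horizontal axis) for each of the 35 genes (vertical axis), coloured by role, with points for the estimate and bars for the 95% interval from limma. Open points mark the 5 genes at or below the olfactory receptor level of 4.97, and the bars of Itga7 and Lama4 alone do not cross 0, before any adjustment for the number of genes.

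Because castration withdraws androgen, promoters of the genes were searched for AGAACA, the hexamer that forms each arm of the motif bound by the androgen receptor and its relatives. RefSeq promoters (build GRCm38.p6) matched 22 of the 35 genes through their Entrez identifiers, with 25 windows of the 250 bases before a start. Itga7 and Lama4 were not among the 22, so their promoters were not searched. AGAACA on either strand was present for 5 of these 22 genes (22.7%), Itgb1, Lama2, Itga2, Itgb7 and Itgax, against 18.2% of 27025 genes, and in 20% of the windows against 16.1% of 32851 windows of the same length. The 3 windows shown belong to the fibre's laminin receptor subunit Itgb1, its ligand chain Lama2 and the collagen receptor subunit Itga2. They lie at chr8:128685404-128685653 on the plus strand, chr10:27616943-27617192 on the minus strand and chr13:114932101-114932350 on the minus strand, each read 5′ to 3′ towards the start, with the hexamer in capitals.
Itgb1: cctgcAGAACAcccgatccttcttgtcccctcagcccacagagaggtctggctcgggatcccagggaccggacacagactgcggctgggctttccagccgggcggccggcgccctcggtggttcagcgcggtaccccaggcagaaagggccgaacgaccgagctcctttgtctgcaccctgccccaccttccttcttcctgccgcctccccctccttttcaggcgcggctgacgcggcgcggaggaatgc
Lama2: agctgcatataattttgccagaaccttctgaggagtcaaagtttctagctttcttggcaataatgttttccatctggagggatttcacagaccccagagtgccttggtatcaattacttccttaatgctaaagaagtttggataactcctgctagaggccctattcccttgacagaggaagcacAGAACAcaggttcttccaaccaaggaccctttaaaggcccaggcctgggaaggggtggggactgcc
Itga2: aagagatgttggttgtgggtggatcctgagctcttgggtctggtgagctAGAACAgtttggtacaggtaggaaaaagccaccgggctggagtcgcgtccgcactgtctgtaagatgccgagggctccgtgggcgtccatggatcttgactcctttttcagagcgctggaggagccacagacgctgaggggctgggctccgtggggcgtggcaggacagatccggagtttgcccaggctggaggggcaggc
The first base of the hexamer lies 245 bases before the start in Itgb1, 66 in Lama2 and 201 in Itga2. A match describes the letters in these windows and is not a binding site. Differences of these genes in castrated muscle were −0.094 for Itgb1, −0.12 for Lama2 and 0.23 for Itga2, none past the threshold.

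The muscle laminin receptor had values on the lower side in castrated muscle for its alpha subunit. Itga7, whose protein joins the fibre to laminin at the sarcolemma and the tendon junction, had log2 values of 8.32, 8.31 and 8.48 in castrated samples, against 8.77, 8.74 and 8.53 in sham samples. Every castrated value lay below every sham value, and castrated sample 3 and sham sample 3 were the closest to each other. Means were 8.37 ± 0.092 in castrated and 8.68 ± 0.13 in sham muscle (SD, n = 3 each), 1.24-fold lower in castrated muscle, with a difference of −0.31 (standard error 0.11, 95% interval −0.56 to −0.068). In limma the unadjusted p was 0.018 and the adjusted p 0.668, and Itga7 ranked 588 of 22180 genes by p. Without castrated sample 1, castrated sample 2, sham sample 1 or sham sample 2, the unadjusted limma p lay between 0.0530 and 0.0612. The neuromuscular junction markers (5 genes, mean log2 level 6.59 to 6.64 in castrated and 6.79 to 6.84 in sham samples) did not overlap between groups either. The genes of that list did not share a direction: 3 had lower and 2 higher means in castrated samples, with Musk at −0.81, Chrnd at −0.25 and Chrna1 at 0.25, none past the threshold (limma adjusted p = 0.391 for Musk). For 3 of the 5 the unadjusted limma p was under 0.05 (60%, against 7.13% of all genes). The part of the junction markers in the Itga7 value was not tested.

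Itgb1, the beta subunit shared by most matrix-binding integrins, had log2 values of 10.26, 10.31 and 10.38 in castrated samples and 10.37, 10.40 and 10.45 in sham samples. The groups overlapped by castrated sample 3 alone. Its difference was −0.094 (standard error 0.093, 95% interval −0.30 to 0.12, limma adjusted p = 0.863).

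The chains of laminin-211, the fibre's own laminin, did not differ beyond the spread. Lama2 had values of 8.63, 8.63 and 8.78 in castrated samples, against 8.97, 8.72 and 8.71 in sham samples, a difference of −0.12 (standard error 0.11, limma adjusted p = 0.852). Sham sample 1 stood above the others, and without it the difference was −0.035. Lamb2, the beta chain that is concentrated at the neuromuscular junction, had 8.81, 8.99 and 8.74 in castrated samples and 8.85, 8.75 and 8.54 in sham samples, a difference of 0.13 (standard error 0.12, limma adjusted p = 0.848). Here the highest value was castrated sample 2 and the lowest sham sample 3, and the rest were mixed. Lamc1, the gamma chain of nearly all laminins, had 9.29, 9.11 and 9.10 in castrated samples and 9.44, 9.23 and 9.18 in sham samples, a difference of −0.11 (standard error 0.11, limma adjusted p = 0.867). In both groups sample 1 was the highest for Lamc1.

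Lama4, the alpha chain of laminin-411 in the walls of small vessels, had the largest positive difference of the 35 genes. Its log2 values were 7.61, 7.69 and 7.43 in castrated samples, against 7.25, 7.14 and 7.40 in sham samples. The groups did not overlap, but castrated sample 3 and sham sample 3 lay side by side. Means were 7.58 ± 0.13 in castrated and 7.26 ± 0.13 in sham muscle (SD, n = 3 each), a 1.25-fold higher level in castrated muscle and a difference of 0.32 (standard error 0.11, 95% interval 0.060 to 0.58). In limma the unadjusted p was 0.0211 and the adjusted p 0.668. The unadjusted limma p lay between 0.0504 and 0.0760 without castrated sample 1, castrated sample 2, sham sample 1 or sham sample 2.

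Marker lists of vessel cells overlapped between the groups. Of 8 endothelial markers, all above the background level, the mean log2 level was 8.47 to 8.51 in castrated and 8.48 to 8.55 in sham samples, and that of 7 pericyte and smooth muscle markers was 8.58 to 8.68 in castrated and 8.53 to 8.62 in sham samples. Within the endothelial list Emcn differed by 0.34 and the tight-junction gene Cldn5 by −0.65, neither past the threshold (limma adjusted p = 0.687 for Emcn and 0.486 for Cldn5). The mean log2 level over 6 adipocyte markers was 6.40 to 6.48 in castrated and 5.98 to 6.25 in sham samples, without overlap. Of these 5 had higher means in castrated samples, 0 passed the threshold (limma adjusted p = 0.658 for Pparg and 0.685 for Fabp4), and Lep was below background. Gene by gene, the groups did not overlap for 2, Pparg and Fabp4 (33.3%, against 12.8% of all genes). Those of Adipoq overlapped, with a difference of 0.27. Fat cells also surround themselves with a basement membrane, and the part of these markers in the Lama4 value was not tested. In whole muscle, a change in the number of cells of a type and a change in RNA per cell cannot be told apart.

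Lama5 and Lamb1 complete the other laminins of muscle and its vessels. Lama5 had 6.84, 6.84 and 6.87 in castrated samples and 7.05, 7.11 and 6.77 in sham samples, a difference of −0.12 (standard error 0.11, limma adjusted p = 0.852). Castrated samples were nearly identical, while sham sample 3 lay under all of them and the others stood above. Lamb1, the beta chain of laminin-411 and laminin-111, had 7.60, 7.65 and 7.45 in castrated samples and 7.61, 7.23 and 7.25 in sham samples, a difference of 0.20 (standard error 0.13, limma adjusted p = 0.786). Sham sample 1 reached the castrated range, and without it the difference was 0.33.

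The remaining 4 laminin chains are known from other tissues. Lama3 and Lamb3, laminin chains of epithelia, differed by −0.071 and 0.036, and Lamc3, a gamma chain of nerve and vessel laminins, by −0.092. Lama1 differed by 0.029 and lay below the background level. Lamb3 and Lamc3 each had castrated sample 1 as the highest of all samples, at 5.55 for Lamb3 and 5.90 for Lamc3, and without it the differences were −0.14 and −0.26. Of 5 epithelial markers Epcam and Krt14 were below background, and the list's mean log2 level was 4.97 to 5.05 in castrated and 4.94 to 5.08 in sham samples.

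**Figure D2:**
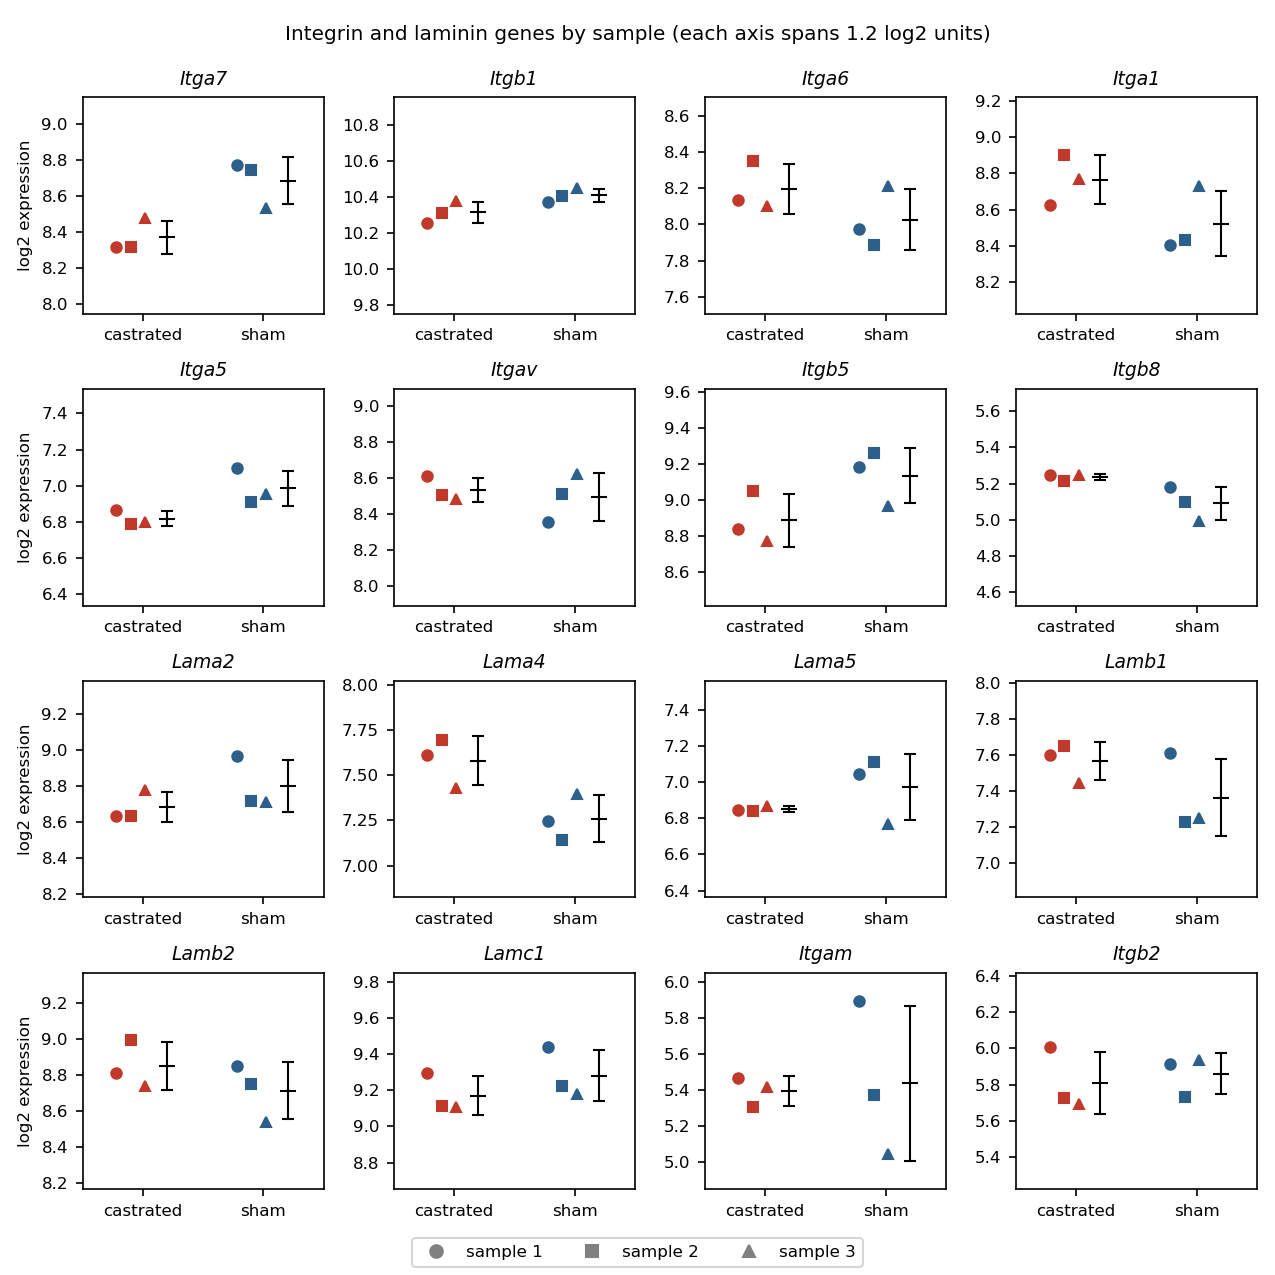
Log2 expression (vertical axes, each spanning 1.2 units) of 16 integrin and laminin genes in the 3 castrated samples (red, left) and the 3 sham samples (blue, right), with the mean and SD of each group in black. Symbols mark sample numbers. Castrated and sham values are apart for Itga7, Itga5, Itgb8 and Lama4 and overlap in the other panels.

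The other laminin-binding alpha subunits had higher means in castrated samples, without passing the threshold. Itga6, which pairs with Itgb1 on endothelial and satellite cells and with Itgb4 in epithelia and nerve sheaths, had log2 values of 8.13, 8.35 and 8.10 in castrated samples, against 7.97, 7.89 and 8.21 in sham samples. Only sham sample 3 reached into the castrated range. The difference was 0.17 (standard error 0.12, limma adjusted p = 0.808). Itga3 differed by 0.23 (standard error 0.15) and Itgb4 by 0.024 (standard error 0.12). Another probe set shared by Itgb4 and B230344G16Rik differed by 0.16.

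Of the 3 collagen-binding alpha subunits, 2 had higher and 1 a lower mean in castrated samples. Itga1, the receptor for the collagen IV of basement membranes found on vessels and fibroblasts, had log2 values of 8.63, 8.90 and 8.77 in castrated samples and 8.40, 8.43 and 8.73 in sham samples. Sham sample 3 stood apart from the other sham samples and inside the castrated range. The difference was 0.25 (standard error 0.12, 95% interval −0.038 to 0.53, limma adjusted p = 0.745), and 0.35 without sham sample 3. Itga2, the platelet and epithelial collagen receptor, differed by 0.23 (standard error 0.11, limma adjusted p = 0.728), with castrated values of 5.73, 5.94 and 5.68 and sham values of 5.68, 5.49 and 5.48. Only sham sample 1 touched the castrated range.

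Itga11, the fibroblast receptor for fibrillar collagen I, differed by −0.18 (standard error 0.11, limma adjusted p = 0.789). Its ligand genes had the opposite sign: Col1a1 had log2 values of 10.12, 9.75 and 8.94 in castrated samples against 9.23, 8.71 and 8.25 in sham samples, and Col1a2 differed by 0.61 (standard error 0.25), neither past the threshold (limma adjusted p = 0.668 for Col1a1 and 0.687 for Col1a2). Castrated samples 1 and 2 were the highest for Col1a1 and sham sample 3 the lowest. Tendon markers followed the same order, with a mean log2 level over 9 genes of 7.55, 7.41 and 7.04 in castrated samples and 7.18, 6.87 and 6.54 in sham samples, all 9 above background. Of the tendon markers 8 had higher and 1 a lower mean in castrated samples, with a median of 0.48. For 4 the unadjusted limma p was under 0.05 (44.4%, against 7.13% of all genes), and 0 passed the threshold. The part of the tendon markers in the collagen values was not tested. All 6 measured fibro-adipogenic progenitor markers had lower means in castrated samples, as Itga11 did, with a median of −0.17. An unadjusted limma p under 0.05 was found for 2 (33.3%, against 7.13% of all genes), and 0 passed the threshold. Their mean log2 level was 8.24 to 8.48 in castrated and 8.40 to 8.82 in sham samples, and their part in the Itga11 value was not tested.

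Integrins that bind the arginine-glycine-aspartate motif of fibronectin and related proteins went both ways. Itga5, the alpha subunit of the main fibronectin receptor, had log2 values of 6.87, 6.79 and 6.80 in castrated samples, against 7.10, 6.91 and 6.95 in sham samples. The groups did not overlap, with castrated sample 1 just under sham sample 2. The difference was −0.17 (standard error 0.098, 95% interval −0.39 to 0.054, limma adjusted p = 0.769). Itgav, the alpha subunit that pairs with Itgb3, Itgb5, Itgb6 and Itgb8 and can release active TGF-beta, had 8.61, 8.51 and 8.48 in castrated samples and 8.36, 8.51 and 8.62 in sham samples. These values were fully mixed, with a difference of 0.039 (standard error 0.11, limma adjusted p = 0.956). A second, dim probe set of Itgav, below the background level, differed by −0.12.

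The beta partners of Itgav did not share a direction. Itgb5 had 8.84, 9.05 and 8.77 in castrated samples and 9.19, 9.26 and 8.97 in sham samples, a difference of −0.25 (standard error 0.12, limma adjusted p = 0.729), with castrated sample 2 above sham sample 3. Itgb6, described mainly in epithelia, was well above background in this muscle, at 7.66, 7.45 and 7.01 in castrated samples and 7.53, 7.96 and 7.44 in sham samples. Its difference of −0.27 (standard error 0.19) had the widest error of the RGD-binding subunits and was −0.093 without castrated sample 3. Itgb8 had 5.24, 5.22 and 5.25 in castrated samples and 5.18, 5.10 and 4.99 in sham samples, close to background, a difference of 0.14 (standard error 0.096, limma adjusted p = 0.792). Itgb3, the beta subunit of the vitronectin and platelet fibrinogen receptors, differed by 0.10, its platelet partner Itga2b by 0.035, and Itga8, a receptor for nephronectin on contractile stromal cells, by 0.075. Of 4 platelet markers Gp6 was below background, and the list's mean log2 level was 5.34 to 5.50 in castrated and 5.48 to 5.72 in sham samples. Ppbp at −0.41 and Pf4 at −0.53 had lower means in castrated samples, and Gp6 at 0.22 and Gp9 at 0.0036 had higher means. None of the 4 passed the threshold (limma adjusted p = 0.668 for Ppbp and 0.732 for Pf4).

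**Figure D3:**
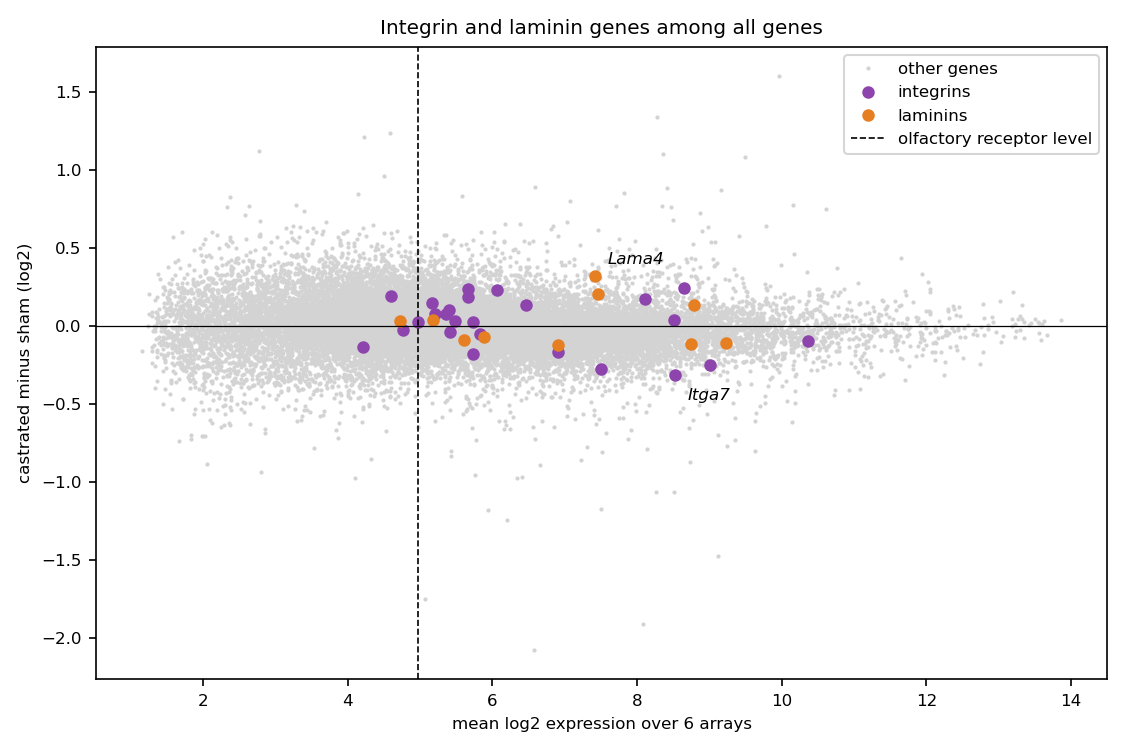
Castrated minus sham difference on the log2 scale (vertical axis) against mean log2 expression over the 6 arrays (horizontal axis) for all 22180 genes, with the 25 integrins and 10 laminins coloured and the olfactory receptor level of 4.97 dashed. The coloured points lie within the cloud of other genes, between −0.31 and 0.32.

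None of the integrins of migrating and immune cells passed the threshold. Itga4, which binds Vcam1 and fibronectin, differed by 0.14 (standard error 0.16), Itga9 by 0.19 (standard error 0.11) and Itgb7, the lymphocyte partner of Itga4 and Itgae, by 0.079 (standard error 0.11). Itgb2, the common beta subunit of leukocyte integrins, had log2 values of 6.01, 5.73 and 5.69 in castrated samples and 5.91, 5.73 and 5.94 in sham samples, a difference of −0.052 (standard error 0.12, limma adjusted p = 0.949). Castrated sample 1 was the highest of all for Itgb2. Itgam, the alpha subunit of Mac-1 on macrophages and neutrophils, had 5.47, 5.30 and 5.42 in castrated samples and 5.89, 5.37 and 5.04 in sham samples, a difference of −0.041 (standard error 0.19, limma adjusted p = 0.975). Sham samples spanned the whole range for Itgam, and the difference was 0.19 without sham sample 1 and −0.24 without sham sample 3.

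Among 11 leukocyte and macrophage markers the mean log2 level was 6.02, 5.61 and 5.72 in castrated samples and 6.19, 5.75 and 5.82 in sham samples, with sample 1 the highest in both groups, as for Itgam. Of these markers 9 had lower and 2 higher means in castrated samples. An unadjusted limma p under 0.05 was found for 2 (18.2%, against 7.13% of all genes), Lyz2 at −0.57 and S100a8 at −0.41. None passed the threshold (limma adjusted p = 0.668 for Lyz2 and 0.671 for S100a8). The markers S100a8 and S100a9, which neutrophils hold in quantity, were below background. The 4 dim leukocyte subunits differed by −0.027 for Itgad, 0.19 for Itgae, 0.022 for Itgal and −0.14 for Itgax. Itgae groups did not overlap (4.66, 4.68 and 4.74 in castrated samples against 4.60, 4.46 and 4.45 in sham samples), but all 6 values lay below the background level.

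**Figure D4:**
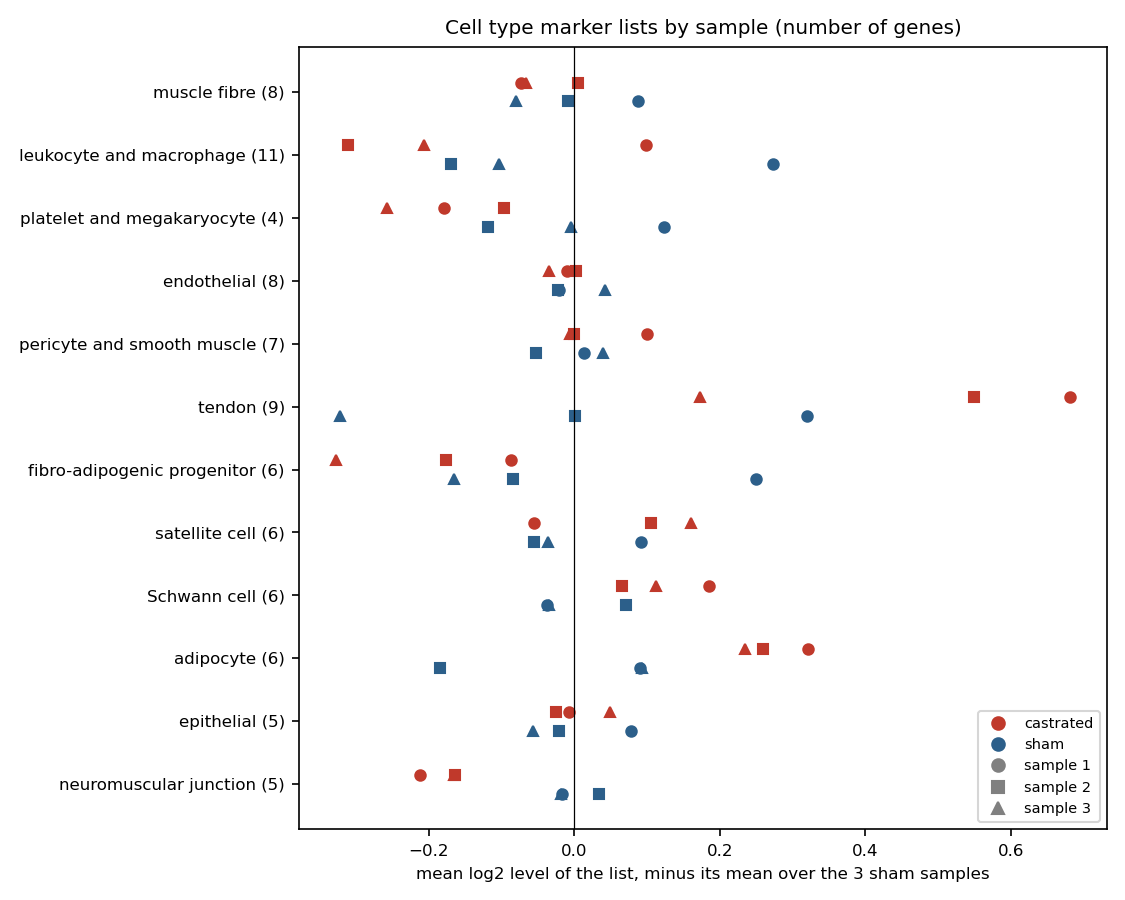
Mean log2 level of 12 cell type marker lists in each sample, relative to the mean of the 3 sham samples (horizontal axis, log2 units), with the number of genes in each list on the vertical axis. Castrated samples (red) and sham samples (blue) are apart for the adipocyte and neuromuscular junction lists and overlap for the others.

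The proteins that integrins and laminins work with were examined as lists. Of 17 basement membrane partners (collagens IV, XV and XVIII, nidogens, perlecan, agrin and relatives) 12 had higher and 5 lower means in castrated samples, with a median difference of 0.071, and 1 had an unadjusted p under 0.05 (5.88%, against 7.13% of all genes). That gene was Frem2, an epidermal basement membrane protein that lay below background (−0.27). Col15a1, a collagen of vessel and muscle basement membranes, differed by 0.34 (standard error 0.17), Fras1, also below background, by 0.22 and Nid1, which bridges laminin and collagen IV, by 0.19 (standard error 0.11), none past the threshold.

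Of 13 measured genes of the dystroglycan and dystrophin complex, the other laminin receptor of the fibre, 4 had higher and 9 lower means in castrated samples, with a median of −0.019. An unadjusted p under 0.05 was found for 2 (15.4%, against 7.13% of all genes), and 0 passed over all genes. Cav3, the muscle caveolin that associates with the complex, had log2 values of 6.77, 6.92 and 6.78 in castrated samples, against 7.20, 7.14 and 7.08 in sham samples. Every castrated value of Cav3 was below every sham value, and the difference was −0.32 (standard error 0.097, limma adjusted p = 0.642). Dtnb, a dystrobrevin, had 5.47, 5.49 and 5.63 in castrated samples and 6.00, 5.67 and 5.87 in sham samples, also without overlap, a difference of −0.32 (standard error 0.12, limma adjusted p = 0.668). The sarcoglycans Sgca and Sgce differed by −0.16 and 0.21. Of 9 measured enzymes that glycosylate dystroglycan for laminin binding, 2 had higher and 7 lower means, with a median of −0.078. None had an unadjusted p under 0.05. The smallest p were those of the kinase Pomk (0.21), B4gat1 (−0.18), Rxylt1 (−0.12) and Gmppb (−0.11).

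Inside the cell, 16 of 22 measured integrin adaptors had lower and 6 higher means in castrated samples, with a median of −0.046, and none had an unadjusted p under 0.05. Groups did not overlap for 4, all lower in castrated samples, or 18.2%, against 12.8% of all genes in either direction and 7.02% in that direction. Vcl, Pxn and Itgb1bp2 were among those without overlap. The adaptors with the smallest p were a different set. Of these, tensin, Tns1, differed by −0.21 (standard error 0.11) and vinculin, Vcl, by −0.21 (standard error 0.13). Paxillin, Pxn, differed by −0.14 (standard error 0.092) and alpha-actinin 1, Actn1, by 0.18 (standard error 0.10). The groups of Tns1 and Actn1 overlapped. For vinculin castrated sample 2, at 9.66, was far below the other castrated samples at 10.05 and 10.07, which lay next to the lowest sham sample at 10.07.

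Other integrin ligands held more low p-values. Of 23 measured, 13 had higher and 10 lower means in castrated samples, with a median of 0.066, and 6 had an unadjusted p under 0.05 (26.1%, against 7.13% of all genes), while 0 passed over all genes. Npnt, nephronectin, a ligand of the Itga8 receptor, had log2 values of 6.53, 6.25 and 6.70 in castrated samples, against 6.91, 6.86 and 6.82 in sham samples, without overlap, a difference of −0.37 (standard error 0.13, limma adjusted p = 0.668). Ltbp1, which anchors latent TGF-beta, the cargo that Itgav integrins release, differed by −0.27 (standard error 0.10, limma adjusted p = 0.680), with 6.42, 6.19 and 6.37 in castrated samples and 6.59, 6.56 and 6.64 in sham samples. Values of Npnt and Ltbp1 were therefore lower in every castrated sample than in any sham sample.

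Postn, periostin, and Vcam1, the ligand of Itga4, had the opposite sign. Postn had 6.58, 6.72 and 6.53 in castrated samples against 6.51, 6.31 and 6.20 in sham samples, a difference of 0.27 (standard error 0.11, limma adjusted p = 0.691). Vcam1 had 6.37, 6.43 and 6.45 in castrated samples against 6.16, 6.27 and 6.15 in sham samples, a difference of 0.22 (standard error 0.094, limma adjusted p = 0.696). In both genes the groups did not overlap. The other 2 of the 6 were Col1a1 and Col1a2.

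**Figure D5:**
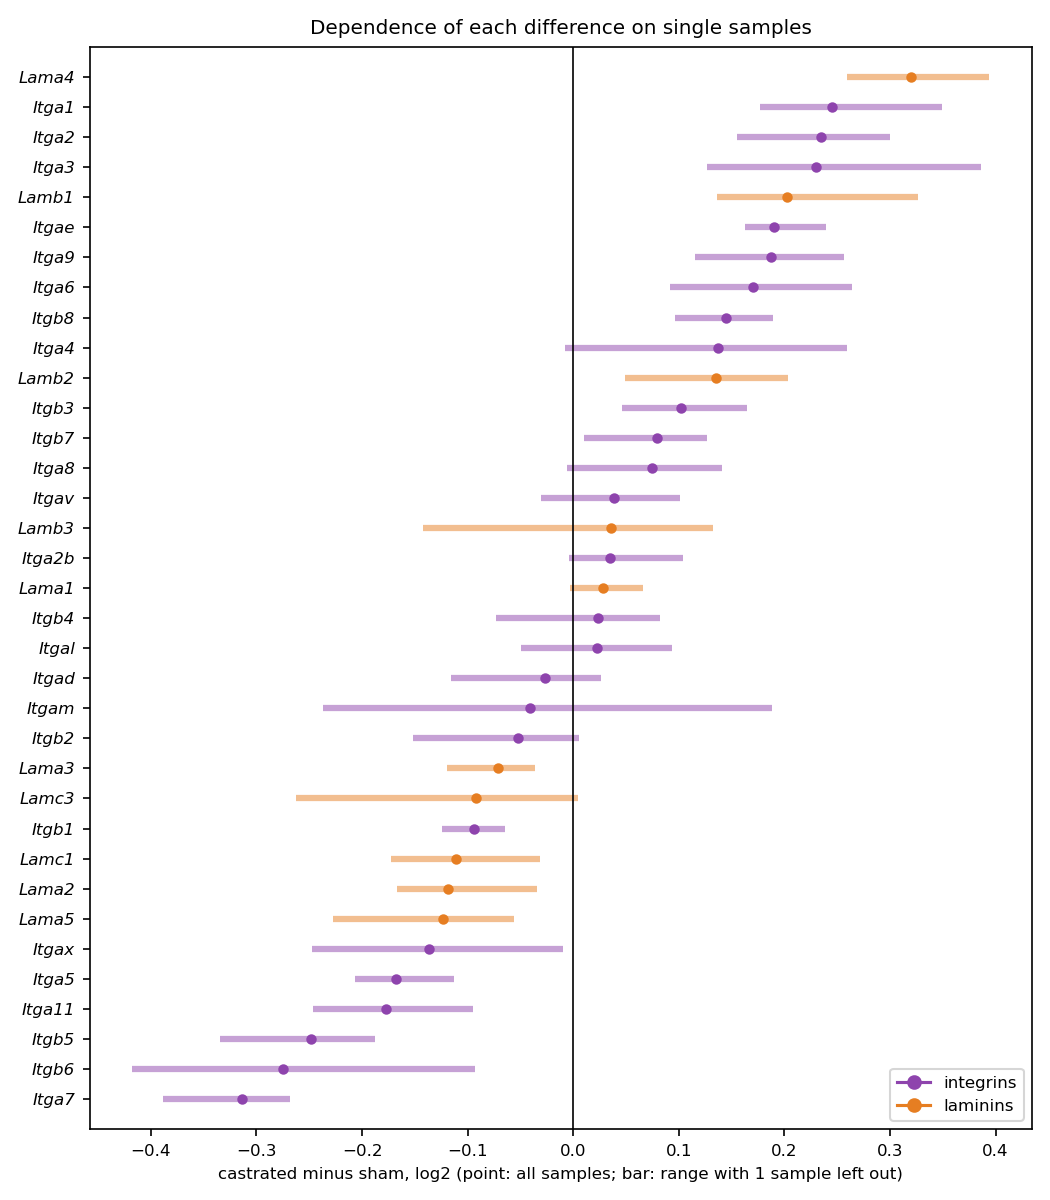
Castrated minus sham difference on the log2 scale (horizontal axis) for each of the 35 genes (vertical axis), with points for all 6 samples and bars for the range when 1 sample was left out, integrins in purple and laminins in orange. The bar of Itga7 runs from −0.39 to −0.27 and that of Lama4 from 0.26 to 0.39, whereas the bars of Itgam and Lamb3 cross 0.

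The differences of Itga7 and Lama4 had the same sign whichever single sample was left out, as did those of 23 of the 35 genes in all. The sign changed with 1 sample left out for Itga2b, Itga4, Itga8, Itgad, Itgal, Itgam, Itgav, Itgb2, Itgb4, Lama1, Lamb3 and Lamc3. The direction of these genes was not determined. A sign that held does not determine direction either, because fits with 1 sample left out share most of their samples. Of the 35 genes, only Itga7 and Lama4 had an unadjusted limma interval with both ends of the same sign.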

How the data were processed

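Tibialis anterior RNA in 3 samples of castrated and 3 of sham mice was measured on Affymetrix whole-transcript arrays. The authors deposited log2 expression values per probe set that they had already processed. The submitters' processing notes name Partek, and how background was corrected, probes summarized and arrays normalized is not given in the sources used here. If arrays were made alike, differences of very dim or bright genes may be understated. Arrays have no read depth, and their number limits the precision.

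Of 41345 probe sets 23521 carry 1 platform gene symbol, and symbols were updated by Entrez identifier from a GRCm38.p6 gene table. Each of 22180 genes was read from its brightest probe set on average. Groups come from the titles. The labels name a mouse for each sample without stating that the animals differ, so p-values measure the spread between samples.

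The castrated minus sham difference was fitted by limma 3.58.1 under R 4.3.3 (lmFit, eBayes, no covariate, no filter), with Benjamini-Hochberg adjustment across genes. Simulated data were used to test the fit. The members and lists were chosen with earlier results of these data known, so list counts are descriptions.

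Per-sample values are given for members at an unadjusted p under 0.05 and for a set named whatever their values. Itga1, Itga2, Itgae, Itgb5, Itgb6, Itgb8 and the marker genes were added after their values were seen. Of each partner list the 4 genes with the smallest p and any with an unadjusted p under 0.05 are named. Alternatives were quantile and cyclic loess normalization, median centring, filters at the 25th and 50th percentile, averaged probe sets, a replicate block, a trended robust prior, array weights and leaving out each sample. Figures were drawn with matplotlib 3.10.9.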

Additional observations from a re-analysis of the deposited data

How the results depend on the processing

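Under each alternative run, 0 of the integrin and laminin genes passed the adjusted threshold, and each tested member's 95% interval lay within a 2-fold difference. The number at an unadjusted limma p under 0.05, 2 with all samples, was 4 when genes under the 50th percentile were left out and 4 with a trended robust prior, and ran from 0 to 4 with 1 sample left out (0 without castrated sample 1 and without sham sample 2, 4 without sham sample 3). The number without overlap, 5 with all samples, was 3 after cyclic loess, 3 when genes under the 50th percentile were left out, and 6 to 12 with 1 sample left out, where smaller groups overlap less easily. The integrin median, 0.035 with all samples, was −9.0e-05 after quantile normalization and −0.0029 after centring, and −0.0080 to 0.074 with 1 sample left out. The laminin median, −0.021 with all samples, was −0.046 after quantile normalization, −0.042 after cyclic loess, −0.059 after centring, −0.082 when genes under the 50th percentile were left out and −0.077 to 0.028 with 1 sample left out. Signs of small differences turned as follows. Centring subtracts 1 value from each array and so moves the difference of every gene, and both medians, by the same amount. The cause of the turns under the other settings was not tested. After quantile normalization Itga2b was at −9.0e-05, Itgal at −0.017, Itgb4 at −0.0016 and Lama1 at −0.015. After cyclic loess Itgal was at −0.016 and Lama1 at −0.012. After centring on array medians Itga2b was at −0.0029, Itgal at −0.015, Itgb4 at −0.014, Lama1 at −0.0090 and Lamb3 at −0.0018. With array weights Itgb4 was at −0.0073. Itgav was at −0.042 for the mean of its probe sets and −0.12 for its other probe set, an alternative chosen after seeing the data. With 1 sample left out the range was −0.0043 to 0.10 for Itga2b, −0.0080 to 0.26 for Itga4, −0.0058 to 0.14 for Itga8, −0.12 to 0.026 for Itgad, −0.049 to 0.094 for Itgal, −0.24 to 0.19 for Itgam, −0.031 to 0.10 for Itgav, −0.15 to 0.0057 for Itgb2, −0.073 to 0.082 for Itgb4, −0.0035 to 0.066 for Lama1, −0.14 to 0.13 for Lamb3 and −0.26 to 0.0043 for Lamc3. The titles number samples 1 to 3 in both groups. Deviations of same-numbered samples correlated at 0.076, 0.033 and 0.047, too weakly to treat them as pairs, though each of the 6 samples correlated best with its own number, a hint from the data only. With the replicate block 2 of 22180 genes passed, against 3 without it, and 3 members had an unadjusted p under 0.05. With the replicate block the limma adjusted p was 0.653 for Itga7 and 0.661 for Lama4. Over all alternatives the adjusted p ran from 0.329 to 0.838 for Itga7 and from 0.353 to 0.838 for Lama4. Closeness to background limits what can be read from Lama1, Itgad, Itgae, Itgal and Itgax.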

Other observations

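Genes with related names that are not integrin subunits gave these values. Itgb1bp1 and Itgb1bp2 were already counted in the list of integrin adaptors above. Itgb1bp2, which encodes melusin, a muscle protein that binds the tail of the beta 1 integrin, had log2 values of 9.10, 9.19 and 9.06 in castrated samples, against 9.29, 9.26 and 9.20 in sham samples, without overlap, a difference of −0.14 (standard error 0.094, limma adjusted p = 0.801). Itgb1bp1, which encodes another protein that binds that tail, differed by −0.17 (standard error 0.15), with castrated sample 1 the lowest at 6.36. Itgbl1 had 6.73, 6.73 and 6.39 in castrated samples and 6.71, 6.10 and 6.23 in sham samples, a difference of 0.27 (standard error 0.17). Itgb2l, a beta 2-like gene of mouse neutrophils, differed by 0.26 at a level below background, and Itgb3bp by 0.00022. None of these passed the threshold over all genes.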
